A study of Mus musculus with 335 samples.

Results

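The collagen genes described here are the entries of the gene table whose symbol is "Col", a number, "a" and a number with nothing after it. There were 34 of them among 13448 entries with a symbol. By the usual classes they comprised 11 fibrillar genes, 8 FACIT genes (collagens that sit on the surface of fibrils), 7 basement membrane genes, 3 beaded filament genes, 2 short-chain network genes, 2 transmembrane genes and Col26a1, which belongs to none of these. The choice used names and no level, but it was made with earlier results of these data known. Collagen genes without an entry could not be chosen.

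RNA was measured by Smart-seq2, which reads whole transcripts of single cells, in 335 cells of the aorta-gonads-mesonephros (AGM) of Wild-type mouse embryos at E11.5. The AGM surrounds the dorsal aorta and is where blood stem cells arise. The cells were freshly sorted into 4 groups. HSC held 65 EPCR+CD45+ cells, which include blood stem cells. Dorsal held 93 and Ventral 89 Ngfr+Pdgfrb- cells from the respective side of the aorta, labelled sympathoadrenal. Mesenchymal held 88 Pdgfrb+Ngfr- cells from the ventral side, labelled subaortic mesenchymal. All 4 groups passed through collagenase, and all share genotype and stage.

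Each group was 1 sequencing pool and no animal is named, so each group is 1 sample. No test was possible, and a difference between groups cannot be told apart from a difference between pools. The groups summed to 82516453 (HSC), 108409099 (Dorsal), 110598792 (Ventral) and 68560755 (Mesenchymal) estimated counts, and a single cell to between 126979 and 20481041. The deepest cell, Ventral 41 (cells are numbered within a group), held 18.5% of the Ventral counts. The pools reuse the same 96 pairs of well indices, each found in more than 1 pool and 55 in all 4. Levels are counts per 1000000 counts of the summed group (CPM); ranges run over the cells of a group. A cell is called positive with at least 5 counts after thinning to 310000 counts, which left 64 HSC, 92 Dorsal, 80 Ventral and 69 Mesenchymal cells.

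The labels were set against marker genes. The 5 measured mesenchyme markers summed to 916 CPM in Mesenchymal, 133 in Ventral, 10.9 in Dorsal and 4.85 in HSC. Ventral 41 carried most of the Ventral value, which was 35.2 CPM without it, and the median Ventral cell had 5.60. In Ventral 41 the marker present was Prrx1, with 0 counts of Pdgfra and Pdgfrb. The 6 neural crest and glia markers summed to 1170 CPM in Dorsal, 391 in Ventral and 9.34 in Mesenchymal. The 6 endothelial markers summed to 697 CPM in HSC, against 17.1 in Dorsal, 56.97 in Ventral and 48.003 in Mesenchymal, beside 1629 CPM of the 7 haematopoietic markers in HSC; without Ventral 57 the Ventral value was 23.6. Macrophage markers reached 1096 CPM in Dorsal and 752 in Ventral, carried by 9 and 11 cells, against 138 in HSC and 2.27 in Mesenchymal. Without Ventral 21 the macrophage markers summed to 466 CPM in Ventral, and without HSC 37 to 85.9 in HSC.

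Collagens are built from 3 chains wound into a triple helix, and each gene encodes 1 chain. Fibrillar collagens I, II, III, V and XI are cleaved outside the cell and assemble into fibrils that give connective tissue its strength. FACIT collagens decorate these fibrils, whereas collagen IV forms the sheet-like network of basement membranes, under endothelium and around muscle and nerve. In the embryo, connective tissue cells, cartilage precursors, endothelium and glia each make their own combination.

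Promoter windows (250 bases before the RefSeq start, GRCm38.p6) were present for 25 of the 34 genes, some with more than 1 start. A window that overlaps no annotated exon is shown for 3 genes that differ in the groups where they were high: Col3a1, the most abundant member in Mesenchymal; Col25a1, highest in Dorsal; and Col9a1, highest in Mesenchymal with few counts elsewhere. Col9a1 has 2 windows, of which the other overlaps an exon and is not shown. The Col25a1 window lies inside the annotated gene, which begins upstream at base 130131501, so it precedes an internal start. Capitals mark matches on either strand to 4 motifs: TATAAA, found near many starts; GGGCGG, known as the GC box; CCAAT, read by the NF-Y factor; and ACAAAG, a core read by Sox proteins.
Col3a1 (chr1:45311288-45311537, plus strand): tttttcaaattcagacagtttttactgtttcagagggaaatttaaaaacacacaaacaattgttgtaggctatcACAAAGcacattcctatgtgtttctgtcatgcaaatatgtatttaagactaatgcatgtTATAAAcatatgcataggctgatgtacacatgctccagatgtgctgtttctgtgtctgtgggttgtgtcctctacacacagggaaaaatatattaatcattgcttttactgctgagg
Col25a1 (chr3:130180595-130180844, plus strand): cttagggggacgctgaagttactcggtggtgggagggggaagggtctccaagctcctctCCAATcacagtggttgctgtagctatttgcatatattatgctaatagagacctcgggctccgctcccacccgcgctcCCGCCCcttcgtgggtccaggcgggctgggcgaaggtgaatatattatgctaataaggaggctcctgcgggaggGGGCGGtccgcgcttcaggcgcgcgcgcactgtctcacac
Col9a1 (chr1:24177360-24177609, plus strand): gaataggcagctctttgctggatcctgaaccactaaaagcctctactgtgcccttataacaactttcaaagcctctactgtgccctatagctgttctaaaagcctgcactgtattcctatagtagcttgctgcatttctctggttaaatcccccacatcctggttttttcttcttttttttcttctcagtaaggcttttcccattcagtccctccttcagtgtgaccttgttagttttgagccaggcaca
The Col3a1 window holds a TATAAA 117 bases and an ACAAAG 176 bases before the start. The Col25a1 window holds a CCAAT and a pair of GC boxes, and the Col9a1 window shown holds none of the 4 motifs, while its other window holds a CCAAT. Over all 28 windows of members, GGGCGG was present in 67.9%, against 32.7% of 32851 windows of all genes. The shares were 39.3% and 33.8% for CCAAT, 7.14% and 12.4% for TATAAA, and 7.14% and 16.5% for ACAAAG. A match is a description of these letters and not a site.

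Mesenchymal cells devoted the most of their RNA to collagen. The 34 genes took between 0.103% and 0.856% of the counts of a Mesenchymal cell, with a median of 0.272%. The range was 0.00233% to 0.413% in Dorsal (median 0.105%), 0.00138% to 0.296% in Ventral (median 0.0536%) and 0.00194% to 0.186% in HSC (median 0.0441%). The ranges overlap, though no Mesenchymal cell was as low as the median HSC or Ventral cell. In the summed groups the shares were 0.320% (95% Poisson limits 0.319% to 0.321%) in Mesenchymal, 0.114% in Dorsal, 0.0759% in Ventral and 0.0478% in HSC. These and all later limits cover counting error only. The median thinned cell was positive for 13 collagen genes in Mesenchymal, 11 in Dorsal, 6.5 in Ventral and 4 in HSC.

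**Figure D1:**
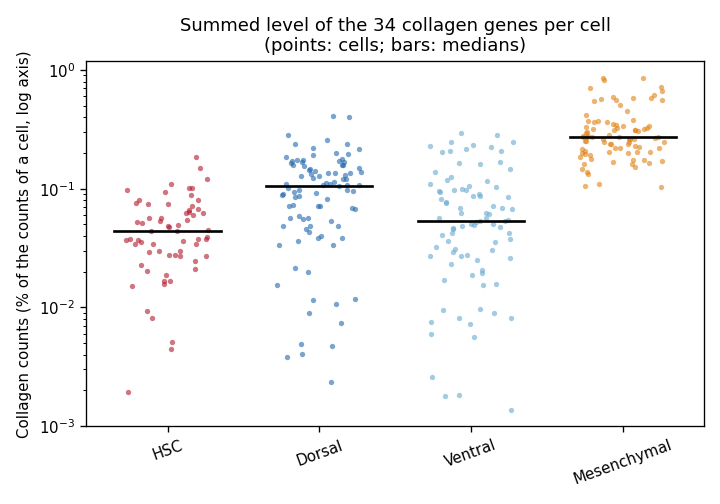
Summed level of the 34 collagen genes in each cell, as a percent of its counts on a log axis; points are cells and bars are group medians. Mesenchymal cells lie from 0.103% to 0.856%, and the other groups reach down to 0.00233% or lower.

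The kind of collagen differed as much as the amount. Fibrillar genes made 0.237% of all counts in Mesenchymal, 0.0734% in Dorsal, 0.0466% in Ventral and 0.00226% in HSC. Basement membrane genes were closer together, at 0.0446% in HSC, 0.0377% in Mesenchymal, 0.0223% in Dorsal and 0.0139% in Ventral. In HSC the collagen message was thus almost wholly of the basement membrane class, and in the other groups mostly fibrillar.

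Groups were compared by the log2 fold of CPM + 1. A pair of groups needed 100 counts of a gene between them, and a gene was called at 2-fold. Against Ventral, 22 of the 34 members were higher in Mesenchymal and 4 were lower, where 12.9% of all genes were higher and 17.1% lower. The median log2 fold of the members was 1.48, against -0.09 over all genes. Against Dorsal, 33 members passed the filter, of which 20 were higher in Mesenchymal and 5 lower, beside 9.68% and 17.5% of all genes. The medians were 1.51 for members and -0.15 for all genes. All 3 beaded filament and both short-chain genes were higher in Mesenchymal in both comparisons, while FACIT genes divided 3 higher and 3 lower of 8 against Ventral. These comparisons share the Mesenchymal cells. Single cells ended the calls of Col5a1 (log2 1.06, or 0.77 without Ventral 41 and 1.99 without Ventral 30), Col23a1 (0.71 without Mesenchymal 24), Col4a5 (0.80 without Mesenchymal 84) and Col22a1 against Ventral, and of Col6a1 (0.94 without Mesenchymal 53) and Col14a1 against Dorsal.

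**Figure D2:**
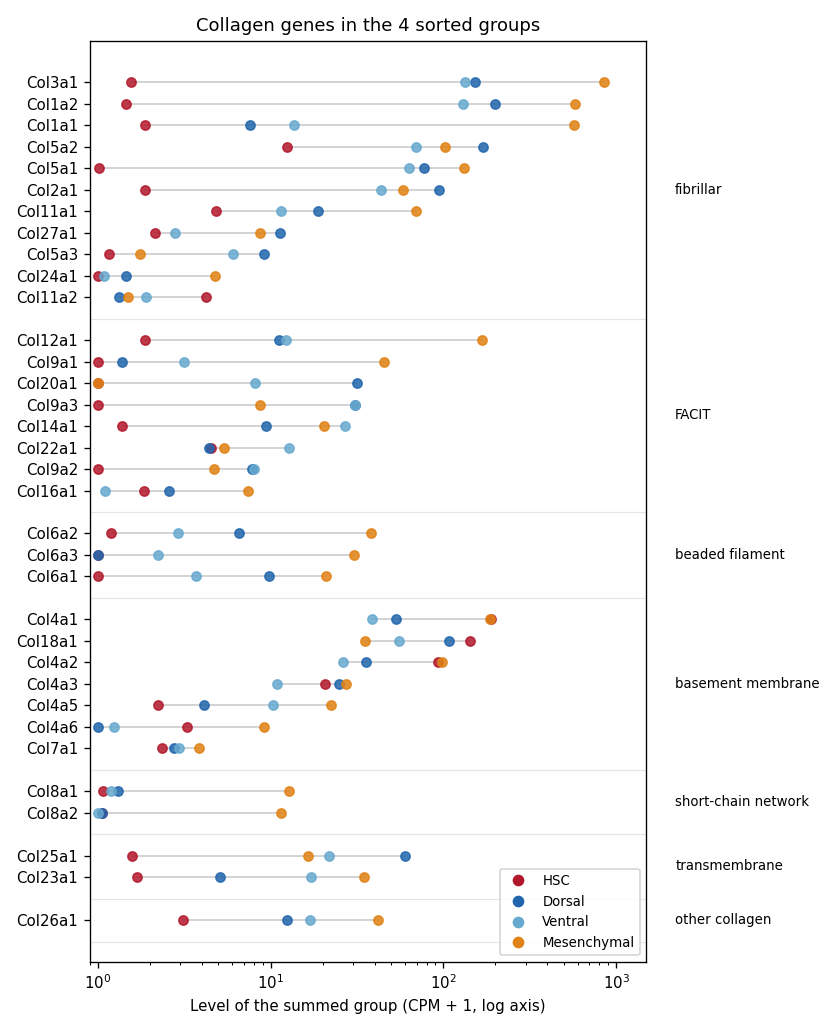
Level of each collagen gene in the 4 summed groups, as CPM + 1 on a log axis, ordered by class and by highest level; each point is 1 group. Mesenchymal is the highest group for Col3a1 (846 CPM), Col1a2 and Col1a1, and Dorsal for Col5a2, Col2a1, Col20a1 and Col25a1.

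Of the 34 members, 17 were at least 2-fold higher in Mesenchymal than in each other group (17 of 34, where 5.05% of all genes were). Dorsal was highest in this sense for Col20a1 and Col25a1 (2.91% of all genes), Ventral for Col22a1 (3.30%) and HSC for Col11a2 (6.79%). The last was a low level of 3.24 CPM, with 6.25% of HSC cells positive, and it no longer stood 2-fold above Ventral once Ventral 41 was left out.

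Collagen I, the main collagen of connective tissue, consists of 2 chains of Col1a1 and 1 of Col1a2. In Mesenchymal cells Col1a1 ran from 18.1 to 2143 CPM (median 491) and Col1a2 from 16.9 to 1815 (median 577), so that both were present in every cell. Dorsal cells had Col1a2 from 0 to 1914 CPM (median 103) but Col1a1 from 0 to 466 with a median of only 1.03. Ventral cells had Col1a2 from 0 to 1002 CPM (median 8.72) and Col1a1 from 0 to 756 (median 0.44). The 2 chains of this collagen thus went together in Mesenchymal and not in the Ngfr+ groups.

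Among thinned cells, 68 of 69 Mesenchymal cells were positive for both chains. In Dorsal, 64 of 92 cells were positive for Col1a2 only, 3 for both and 1 for Col1a1 only. In Ventral, 36 of 80 were positive for Col1a2 only, 5 for both and 4 for Col1a1 only. Per kb of the longest transcript, the summed level of Col1a1 was 0.887 of that of Col1a2 in Mesenchymal, 0.0300 in Dorsal and 0.0884 in Ventral. Without Ventral 41, which holds 55.5% of the Ventral Col1a2 counts, the Ventral ratio was 0.197, and without Dorsal 81 the Dorsal ratio was 0.0193. In the 88 Mesenchymal cells with at least 50 counts of the pair, Col1a1 made a median of 44.1% of the pair per kb, and 62 cells lay between 30% and 70%. In 56 Dorsal cells the median was 0.365%, and 52 lay under 10%. In 31 Ventral cells the median was 0.539%, and 24 lay under 10%.

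**Figure D3:**
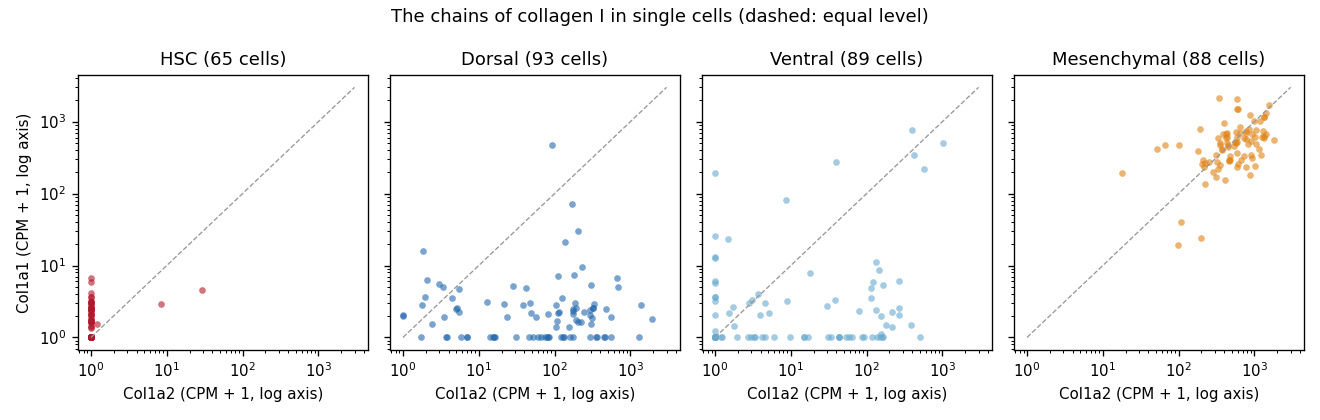
Col1a1 against Col1a2 in each cell, CPM + 1 on log axes, 1 panel a group; the dashed line marks equal levels. Mesenchymal cells cluster near the line, while most Dorsal and Ventral cells run along the lower edge, with Col1a2 and little or no Col1a1.

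In the summed groups Col1a1 (chromosome 11, 94936224 to 94953042, plus strand) stood at 571 CPM in Mesenchymal, 6.60 in Dorsal and 0.882 in HSC. On the CPM + 1 scale its log2 fold was 6.23 against Dorsal and 5.39 against Ventral, the largest of any member in both. Without the added 1, its ratio of 86.5 against Dorsal was below those of Col9a1 (113) and Col8a2 (193), among others. Its ratio of 45.3 against Ventral was below those of Col16a1 (64.3) and Col8a1 (60.3), among others. Col1a2 (chromosome 6, 4504814 to 4541544, plus strand) stood at 581, 198, 129 and 0.459 CPM in Mesenchymal, Dorsal, Ventral and HSC. Its log2 folds were 1.55 against Dorsal and 2.17 against Ventral, or 3.03 without Ventral 41. In HSC, 0 of 64 cells were positive for Col1a1, which allows up to 4.69% of cells (a floor of 3 of 64). The HSC counts of Col1a1 lay thinly over many cells, with a median of 0.639 CPM and no cell above 5.64.

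Col3a1, whose chain forms collagen III of pliable tissues, was the most abundant member per kb in Mesenchymal. Its range there was 88.2 to 2997 CPM (median 701.7), against 0 to 580 in Dorsal (median 84.1) and 0 to 1196 in Ventral (median 5.09). The summed levels were 846, 152 and 132 CPM, and the log2 folds of Mesenchymal stood at 2.47 against Dorsal and 2.67 against Ventral. Ventral 41 alone held 60.5% of the Ventral Col3a1 counts, and without it the fold against Ventral was 3.70. Every thinned Mesenchymal cell was positive, as were 63.04% of Dorsal cells (exact Clopper-Pearson 95% limits 52.3% to 72.9%) and 41.2% of Ventral cells (30.4% to 52.8%).

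Col5a1 and Col5a2 encode chains of collagen V, which starts fibrils and sets their width. Of the pair, Col5a2 did not follow collagen I. Col5a2 ran from 0 to 657 CPM in Dorsal (median 127), 0 to 778 in Ventral (median 40.7) and 0 to 403 in Mesenchymal (median 68.7). The groups overlap, and the summed level was highest in Dorsal at 170 CPM, against 101 in Mesenchymal and 68.9 in Ventral. Col5a1 summed to 132 CPM in Mesenchymal, 76.2 in Dorsal and 62.4 in Ventral. Its cells ran from 0 to 603 CPM in Mesenchymal (median 80.1), 0 to 410 in Dorsal (median 35.1) and 0 to 412 in Ventral (median 9.19). This order of the groups was that of Col1a2. Per kb, the ratio of Col5a1 to Col5a2 was 1.02 in Mesenchymal, 0.713 in Ventral and 0.354 in Dorsal. Without Ventral 30 the Ventral ratio was 0.383, near that of Dorsal. With median in place of longest transcript lengths the ratios were 1.82, 1.27 and 0.629. The third chain, Col5a3, went the other way from Col1a1, with 8.11 CPM in Dorsal, 5.04 in Ventral and 0.750 in Mesenchymal (log2 fold -2.38 against Dorsal). Col3a1 and Col5a2 are neighbours on chromosome 1, 24614 bases apart on opposite strands, yet Col3a1 was highest in Mesenchymal and Col5a2 in Dorsal.

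Col2a1, the main collagen of cartilage and also of the embryonic notochord and neural tissue, was present in most Dorsal cells. It ran from 0 to 451 CPM there (median 74.03), with 82.6% of thinned cells positive. Ventral cells ran from 0 to 349 CPM (median 19.03), with 50% positive and a summed level of 42.5 CPM. Mesenchymal cells ran from 0 to 1034 CPM with a median of 1.25, and 40.6% were positive. A minority of Mesenchymal cells therefore held the high values, and the summed levels of 93.7 CPM in Dorsal and 57.3 in Mesenchymal differed by less than 2-fold (log2 -0.70 in Mesenchymal against Dorsal). Mesenchymal 24 held 30.5% of the Mesenchymal counts, and without it the difference passed 2-fold, at -1.15. Across the 88 Mesenchymal cells the Spearman correlation of Col2a1 was 0.41 with Pax9, 0.34 with Sox9 and 0.20 with Pax1, all genes of skeletal precursors. It was -0.47 with Col1a2. Across cells of 1 group, which share a pool and whose counts share a total, these are descriptions only.

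Col11a1, which with Col11a2 and the Col2a1 chain builds collagen XI, stood at 68.2 CPM in Mesenchymal (0 to 389, median 27.2), 17.8 in Dorsal and 10.4 in Ventral. Col11a2 was at most 3.24 CPM in any group, and a single cell, Ventral 17, held 98.3% of its Ventral counts. Col24a1 reached 3.77 CPM in Mesenchymal, with 5.80% of cells positive. Col27a1, a collagen of cartilage, was at 10.4 CPM in Dorsal, 7.69 in Mesenchymal and 1.79 in Ventral. These minor fibrillar genes thus followed no common order.

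In HSC, 3 basement membrane genes held most of the collagen counts. Col4a1 and Col4a2, the chains of the most widespread form of collagen IV, took 39.1% and 19.3%, and Col18a1, the source of endostatin, took 29.8%. Col4a1 ran from 0 to 1067 CPM in HSC cells (median 136), Col4a2 from 0 to 607 (median 76.2) and Col18a1 from 0 to 672 (median 139). Of the thinned HSC cells 87.5%, 85.9% and 89.1% were positive, the highest shares of the 4 groups for these genes. Fibrillar genes summed to at most 3.84 CPM each in HSC, except Col5a2 at 11.4, of which HSC 12 held 72.8% of 940 counts.

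Levels of Col4a1 in the summed HSC and Mesenchymal groups were near each other, at 187 and 186 CPM, but were distributed differently. Mesenchymal cells ran from 0 to 1484 CPM with a median of 41.9, 59.4% were positive, and Mesenchymal 53 held 28.5% of the counts. Dorsal and Ventral had 52.003 and 37.4 CPM. For Col18a1 the order was HSC at 142 CPM, Dorsal at 107, Ventral at 54.6 and Mesenchymal at 34.1. Most of the Mesenchymal Col18a1 counts (55.4%) came from Mesenchymal 25, and the median Mesenchymal cell had 0. Col18a1 was at a log2 fold of -1.62 in Mesenchymal against Dorsal, and at -2.65 without that cell. Against Ventral the value of -0.66 became -1.69 without it, past 2-fold.

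**Figure D4:**
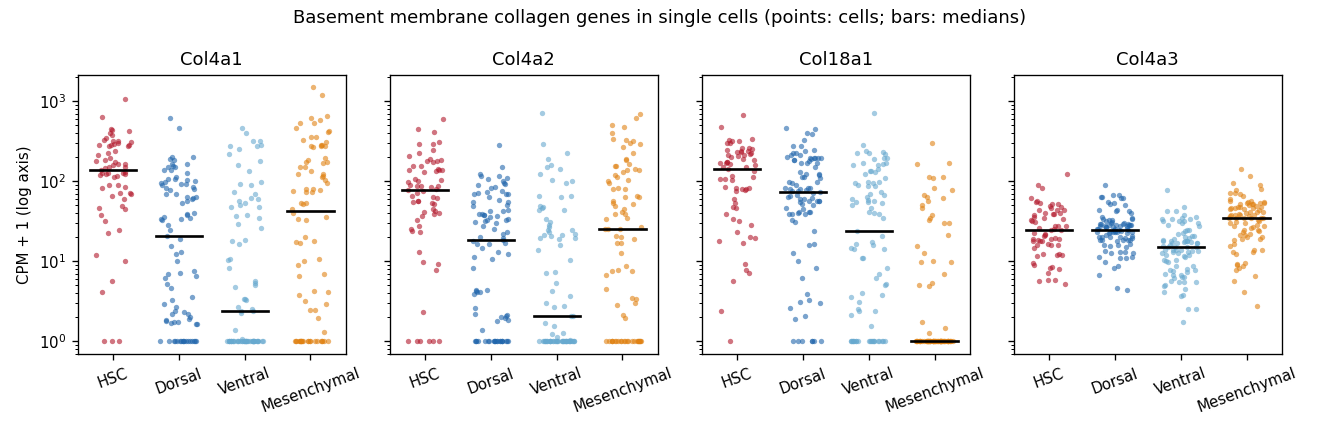
Col4a1, Col4a2, Col18a1 and Col4a3 in each cell, CPM + 1 on a log axis; points are cells and bars are medians. Most HSC cells sit high for the first 3 genes, the other groups spread from 0 upwards, and Col4a3 lies in a narrow band in all groups.

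Col4a1 (11198423 to 11312826, minus strand) and Col4a2 (11312805 to 11449287, plus strand) lie head to head on chromosome 8, with annotated starts that overlap by 22 bases. They were positively correlated in every group. Their Spearman correlation across cells was 0.62 in Mesenchymal, 0.57 in HSC, 0.52 in Dorsal and 0.47 in Ventral. In Mesenchymal this was the highest value of any pair of members, but in HSC Col18a1 with Col4a2 was higher at 0.62. In Dorsal, Col1a2 with Col4a1 was higher at 0.56. Col4a1 and Col4a2 were both positive in 52 of 64 HSC, 36 of 92 Dorsal, 20 of 80 Ventral and 33 of 69 Mesenchymal cells. In the same order of groups, 4, 10, 9 and 8 cells were positive for Col4a1 only, and 3, 13, 10 and 9 for Col4a2 only. Per kb, Col4a1 stood at 1.98 times Col4a2 in HSC, 1.86 in Mesenchymal, 1.46 in Dorsal and 1.44 in Ventral, or 1.11 in Ventral without Ventral 41. These ratios depend on the transcript length taken, and with median lengths they were 11.2, 10.5, 8.24 and 8.14.

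Across the 65 HSC cells, the correlation with Cdh5, which encodes a junction protein of endothelium, was 0.46 for Col4a1, 0.56 for Col4a2 and 0.53 for Col18a1. The values with Esam, another endothelial marker, were 0.36, 0.43 and 0.30. With Procr, which encodes EPCR, a protein used in the sort, they were 0.34, 0.55 and 0.45. They were 0.17, 0.32 and 0.40 with the blood factor gene Gfi1, 0.29, 0.14 and 0.25 with the receptor gene Kit, and 0.13, 0.12 and 0.06 with Ptprc, which encodes CD45. The endothelial markers ranged from 1.40 to 1945 CPM over these cells, with a median of 644. Their part in the collagen IV level was not tested.

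Other basement membrane genes were lower. Col4a5 and Col4a6, paired head to head on chromosome X with 1308 bases between them, were highest in Mesenchymal at 21.5 and 8.19 CPM. Col4a6 had 0 counts in Dorsal, and was at least 296-fold higher in Mesenchymal than a floor of 3 counts summed in Dorsal. In Ventral, Ventral 41 held 45.3% of the Col4a5 counts. Col7a1, the anchoring fibril collagen of skin, stayed under 3 CPM in every group, and a single cell held between 56.3% and 98.2% of its counts in each.

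Col4a3, a chain known from kidney and lung basement membrane, behaved unlike its relatives. It had at least 5 counts in 309 of 335 cells and a summed level of 26.3 CPM in Mesenchymal, 23.9 in Dorsal, 19.6 in HSC and 9.95 in Ventral. Its lowest cell was above 0 in every group. Splitting Dorsal cells by their markers left it almost level, at 22.9 CPM in cells with Sox10 and 28.8 in cells with macrophage markers. Its CPM went down with the depth of a cell in every group. The Spearman values were -0.70 in HSC (65 cells), -0.40 in Mesenchymal (88), -0.38 in Dorsal (93) and -0.29 in Ventral (89). This pattern was not tested further.

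FACIT genes divided between the groups. Col12a1, found in dense connective tissue and around muscle, ran from 0 to 940 CPM in Mesenchymal (median 26.5) and had a median of 0 in each other group. It summed to 168 CPM, against 11.2 in Ventral and 10.1 in Dorsal, with log2 folds of 3.79 and 3.92. Without Ventral 30 the first was 4.55. Across Mesenchymal cells its correlation was 0.56 with Acta2, the smooth muscle actin gene, and 0.44 with Col4a1. Col4a1 in turn had 0.48 with Acta2, against 0.39 for Col3a1, 0.34 for Col1a1 and -0.03 for Col2a1. The order was another with Rgs5, a pericyte marker, at 0.34 for Col1a1, 0.27 for Col3a1, 0.22 for Col4a1 and 0.17 for Col12a1. Col14a1, also a collagen of dense tissue, rested on single cells. Ventral 30 held 64.3% of its Ventral counts and Mesenchymal 84 held 63.3% of its Mesenchymal counts. Its log2 fold of 1.11 in Mesenchymal against Dorsal was -0.15 without Mesenchymal 84.

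The 3 genes of collagen IX, a partner of collagen II, did not go together. Col9a1 was at 44.4 CPM in Mesenchymal (0 to 273, median 18.7), 2.17 in Ventral and 0.391 in Dorsal. Col9a3 was at 29.9 CPM in Ventral, 29.7 in Dorsal and 7.75 in Mesenchymal, and listed at 0 counts in HSC. Per kb, Col9a1 led in Mesenchymal with 11.6 against 2.54 for Col9a3, and Col9a3 led in Dorsal with 9.74 against 0.102. Col9a2 stood between 3.72 and 7.01 CPM in these 3 groups.

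Col20a1 had the lowest fold of any member in Mesenchymal, with log2 values of -4.97 against Dorsal and -3.01 against Ventral. It ran from 0 to 256 CPM in Dorsal (median 4.30) and summed to 30.5 CPM there and to 7.11 in Ventral. Mesenchymal had 1 count and HSC none. The ratio of Mesenchymal to Dorsal had an upper 95% counting limit of 0.00266. Col22a1, a collagen of tissue junctions, was highest in Ventral at 11.7 CPM, but Ventral 41 held 52.5% of these counts. Without it, its log2 fold in Mesenchymal against Ventral was -0.53 in place of -1.23. Col16a1 reached 6.43 CPM in Mesenchymal and 1.602 or less elsewhere.

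Collagen VI, a microfibril made of Col6a1, Col6a2 and a large Col6a3 chain, had its highest summed levels in Mesenchymal. Col6a2 stood at 37.3 CPM there (0 to 273, median 1.98), Col6a3 at 29.5 and Col6a1 at 19.8. For Col6a1 the shares of positive cells were close, at 26.1% in Mesenchymal and 22.8% in Dorsal. Its log2 fold of 1.09 against Dorsal fell short of 2-fold without any of 4 cells. Dorsal had 8.79 CPM of Col6a1 and 5.59 of Col6a2 with Col6a3 under 1 count, so Col6a3 was at least 1065-fold higher in Mesenchymal. Mesenchymal 33 held 42.6% of the Col6a3 counts, and Ventral 48 held 94.0% of those in Ventral. The log2 fold of Col6a3 against Ventral was 3.77, and 4.82 without Ventral 48. Detection of the chains was low: 9 of 69 thinned Mesenchymal cells were positive for both Col6a1 and Col6a2, 9 for Col6a1 only, 20 for Col6a2 only and 31 for neither.

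Col8a1 and Col8a2, which form the short-chain network of vessel walls and cornea, were at 11.8 and 10.5 CPM in Mesenchymal and under 0.32 elsewhere. Few cells carried them, with 7.25% and 13.04% of Mesenchymal cells positive. Mesenchymal 25 held 53.1% of the Col8a1 and Mesenchymal 55 held 39.6% of the Col8a2 counts. Against Dorsal their log2 folds were 3.28 and 3.44, and 2.39 and 2.81 without these cells. Of the transmembrane genes, Col23a1 was highest in Mesenchymal at 33.8 CPM. Col25a1, known from muscle and nerve, was highest in Dorsal at 59.4 CPM (0 to 317, median 32.4), against 20.8 in Ventral and 15.5 in Mesenchymal. Col26a1 stood at 40.99 CPM in Mesenchymal (median 35.2), 15.97 in Ventral and 11.47 in Dorsal.

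Dorsal and Ventral were sorted alike from opposite sides of the aorta. Of the 30 members that passed the filter, 9 were higher in Dorsal (10.1% of all genes) and 6 were lower (8.30%). The median log2 fold was 0.36, against 0.14 over all genes. The higher members were Col27a1, Col20a1, Col25a1, Col6a1, Col5a2, Col16a1, Col4a3, Col6a2 and Col2a1, with log2 folds from 2.03 to 1.12. The lower members were Col23a1, Col22a1, Col14a1, Col4a5, Col9a1 and Col6a3, from -1.76 to -1.16. With cells weighted equally the counts were 3 and 4. Of the 9 higher members Col20a1 (1.48) and Col27a1 (1.07) then kept the call, and Col1a2 gained it (1.14). Col1a1 was then called lower in Dorsal (-1.75).

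Of these 15 calls, 10 ended when 1 cell was left out, against 4 of 26 for Mesenchymal against Ventral and 2 of 25 for Mesenchymal against Dorsal. Without Ventral 41 the fold fell short of 2-fold for Col5a2 (0.997), Col2a1 (0.83), Col4a3 (0.95), Col6a2 (0.98), Col4a5 (-0.82) and Col22a1 (-0.83). In the other direction, Col3a1 went from 0.20 to 1.23 and Col1a2 from 0.62 to 1.48 without it. Col1a1 passed 2-fold as well, but lower in Dorsal, going from -0.84 to -1.11 without Ventral 41. Without Dorsal 81 the fold of Col1a1 was -1.37. Ventral 30 decided Col14a1 (-0.24 without it) and Ventral 48 decided Col6a3 (-0.10). Leaving out Ventral 30, which held 52.2% of the Ventral Col5a1 counts, took Col5a1 from 0.28 to 1.21. Any of 3 Ventral cells ended the call of Col9a1, Dorsal 58 ended that of Col16a1 (0.93) and Dorsal 23 also ended that of Col6a2 (0.91). Col27a1, Col20a1, Col25a1, Col6a1 and Col23a1 kept theirs whichever single cell was left out, but with cells weighted equally Col6a1 fell short at 0.42 and Col25a1 at 0.96.

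Both Ngfr+ groups held cells with different markers, and collagen levels differed between these cells. By at least 5 thinned counts, 77 Dorsal and 38 Ventral cells had Sox10, the factor of neural crest and glia. At least 3 macrophage markers were found in 9 and 11 cells. The other 7 Dorsal and 40 Ventral cells had neither.

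Collagen took 0.130% of the counts of Dorsal Sox10 cells, 0.0366% in the other cells and 0.0137% in cells with macrophage markers. In Sox10 cells Col1a2 was at 230.5 CPM, Col5a2 at 195 and Col3a1 at 178, against 24.5, 12.7 and 1.40 in the cells with macrophage markers. The other 7 cells had 62.5 CPM of Col5a2 and 27.4 of Col2a1, which was at 108 in Sox10 cells. Across all 93 Dorsal cells the correlation with Sox10 was 0.67 for Col1a2, 0.65 for Col18a1, 0.64 for Col4a2 and 0.59 for Col2a1 and Col3a1. It was negative for Col9a3 (-0.34) and Col4a3 (-0.22). Across the 89 Ventral cells the correlation with Sox10 was 0.60 for Col5a2, 0.54 for Col2a1 and 0.51 for Col18a1, but 0.36 for Col1a2, 0.25 for Col3a1, 0.01 for Col4a2, -0.01 for Col4a1 and -0.29 for Col26a1. The Dorsal order of genes was thus not found in Ventral. In Dorsal, Col9a3 was at 66.1 CPM in the other cells and 28.7 in Sox10 cells, and in Ventral at 31.4 and 33.5. The correlation of Col9a3 with Dbh, an enzyme of noradrenaline synthesis, was 0.46 in Dorsal and 0.56 in Ventral.

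The Ventral Sox10 cells had the same unequal pair of collagen I chains, with Col1a2 at 112 CPM and Col1a1 at 1.32. All 9 thinned Ventral cells positive for Col1a1 were among those with neither Sox10 nor macrophage markers. These 40 cells held 95.1% of the Ventral Col1a1 counts, at 22.4 CPM, and 79.2% of the Col3a1 counts, at 195 CPM. Their 5 mesenchyme markers summed to 240 CPM, against 8.81 in the Sox10 cells. Ventral 41 belongs to them, with 563 CPM of the mesenchyme marker Prrx1, 433 of Col3a1, 386 of Col1a2 and 0.49 of Col1a1. Prrx1 made up the mesenchyme marker sum of this cell, which had 0 counts of Pdgfra and Pdgfrb. Without Ventral 41 the mesenchyme markers of the remaining 39 cells summed to 68.7 CPM and Col1a1 was at 33.9. Col3a1 was then at 70.3, close to the 70.6 of the Sox10 cells, and Col1a2 at 37.9, below them. The part of these cells in the differences between Dorsal and Ventral was not tested.

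**Figure D5:**
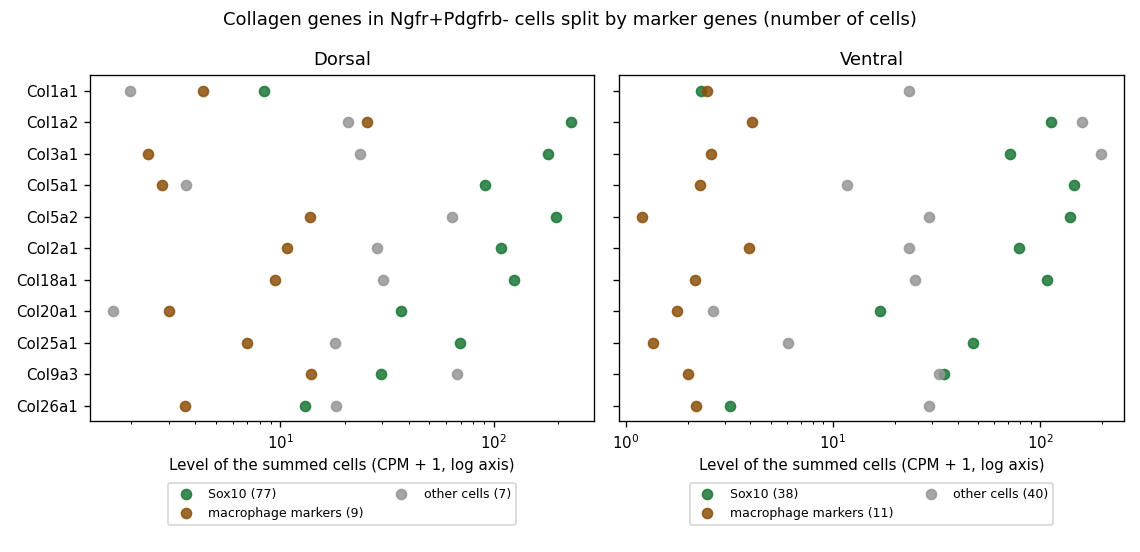
Levels of 11 collagen genes in summed Dorsal and Ventral cells split by marker genes, as CPM + 1 on a log axis; each point is 1 set of cells, with its number of cells in the key. Most genes are highest in Sox10 cells, and Dorsal Col9a3 and Col26a1 and Ventral Col1a1, Col1a2, Col3a1 and Col26a1 in the other cells.

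Members correlated more with each other in Dorsal than in Mesenchymal. Over genes positive in at least 20% of the thinned cells, the median Spearman correlation between members was 0.34 in Dorsal (14 genes, 93 cells), 0.18 in Ventral (13 genes, 89 cells), 0.21 in HSC (4 genes, 65 cells) and 0.04 in Mesenchymal (19 genes, 88 cells). The highest in Dorsal was 0.68, between Col2a1 and Col1a2, the same pair that had the lowest value in Mesenchymal. In Mesenchymal the highest after Col4a1 with Col4a2 were Col1a1 with Col3a1 (0.51) and with Col1a2 (0.50). The part of cells of different kinds within a group in such values was not tested, nor was the difference between groups.

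The genes that make, cut, bind and read collagen were taken from 6 lists. Their counts stand beside 12.9% of all genes higher and 17.1% lower in Mesenchymal against Ventral, and 9.68% and 17.5% against Dorsal. Of the enzymes and chaperones that modify and fold the chains, 9 of 20 were higher in Mesenchymal than in Ventral and none was lower. Against Dorsal, 6 of 21 were higher and 2 lower. Fkbp10, a chaperone and prolyl isomerase with the largest fold against Ventral, stood at 110 CPM in Mesenchymal, 39.55 in Dorsal and 11.501 in Ventral. P4ha3, a subunit of prolyl hydroxylase with the largest fold against Dorsal, stood at 47.6 CPM in Mesenchymal and 60.5 in Ventral but 0.616 in Dorsal.

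Of the processing and cross-linking enzymes, 7 of 12 were higher in Mesenchymal than in Ventral and none lower; against Dorsal these were 5 and 1. Adamts2, which removes the propeptide of collagen I, was at 82.4 CPM in Mesenchymal, 5.18 in Ventral and 4.11 in Dorsal. Loxl1 and Lox, cross-linking oxidases, were at 71.6 and 27.9 CPM in Mesenchymal and under 2.21 in Dorsal and Ventral. Pcolce, an enhancer of propeptide removal, was at 248 CPM in Mesenchymal, 73.5 in Ventral and 17.3 in Dorsal. Of 4 fibril-binding proteoglycans, 3 were higher in Mesenchymal in both comparisons, among them Bgn at 194 CPM against 15.5 in Dorsal and 12.3 in Ventral.

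Of 10 basement membrane partners, 2 were higher and 2 lower in Mesenchymal against Ventral, near the shares over all genes, and 2 and 4 against Dorsal. The laminin chain Lama2 stood at 79.4 CPM in Mesenchymal and 8.59 in Dorsal, whereas Lama4 stood at 131 CPM in Dorsal and 20.1 in Mesenchymal. Lama5 was highest in HSC at 50.3 CPM. Receptors divided by group, with 3 of 8 higher and 4 lower in Mesenchymal against Ventral, and 3 and 6 of 10 against Dorsal. Ddr2, a receptor for fibrillar collagen, was at 277 CPM in Mesenchymal and at most 1.46 in any other group. Ddr1, its relative, was at 64.5 CPM in Dorsal, 50.3 in Ventral and 20.2 in Mesenchymal. Adgrg6, a receptor for collagen IV needed in glia, was at 53.8 CPM in Dorsal, and Adgrg1, a receptor for collagen III, at 357 in HSC.

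Of the genes for breakdown and its inhibitors, 4 of 10 were higher and 2 lower in Mesenchymal against Ventral, and 3 and 3 of 9 against Dorsal. Timp1, an inhibitor of metalloproteinases, was at 38.99 CPM in Mesenchymal and 3.31 in Dorsal, and Timp3 at 63.96 and 249. The membrane protease Mmp15 was at 61.8 CPM in Dorsal and 5.17 in Mesenchymal. Between Dorsal and Ventral, 4 of 21 modifying genes were higher in Dorsal and 2 lower (10.1% and 8.30% of all genes), and no proteoglycan differed 2-fold.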

How the data were processed

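Single cells were the samples, and the 4 groups follow the labels. Per the submitters' processing notes the authors used kallisto 0.43.1 and build GRCm38; the deposited table holds their estimated counts per gene, which carry no depth scaling. A deposited log2 table, used for 1 alternative, holds log2 of the count over a size factor plus 1, as its values show. The 661 entries with no symbol (2.96% of counts) were left out. How transcripts were summed is not given in the sources used here.

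Counts were summed by group and scaled to CPM. Folds used a pseudocount of 1 CPM and at least 100 counts. With 1 sample a group there were no tests or p-values. Limits are 95% Poisson or Clopper-Pearson. Cells under 310000 counts (1 HSC, 1 Dorsal, 9 Ventral, 19 Mesenchymal) were left out of thinned shares (positive: 5 counts, seed 1). Correlations are Spearman values of log2(CPM + 1). Positions and the longest transcript lengths come from GENCODE M21, promoters from RefSeq. Doublets were not called. Each well was meant to receive 1 sorted cell, which was not checked. No pair of cells within a group correlated above 0.743, so none was a copy. The fold script was tested on simulated data. Python 3.11.15, numpy 2.4.6, pandas 2.3.3, scipy 1.17.1 and edgeR 4.0.16 (scaling factors only) were used.

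The members, lists and alternatives were chosen with earlier results of these data known. Members past 2-fold and up to 4 genes a list with the largest folds could be named. Sox10, Dbh, Acta2, Rgs5, Sox9, Pax1, Pax9, Cdh5, Esam, Ptprc, Prrx1, Pdgfra, Pdgfrb and Ddr1 were named after their values were seen. Of 44 collagen symbols planned, 10 are not analysed here. Cells were split by Sox10 and macrophage markers; a further planned split is not reported here.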

Additional observations from a re-analysis of the deposited data

How the results depend on the processing

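With 1 pool a group the values describe these libraries, and depth limits members under about 1 CPM. No paired analysis was possible because the cell numbers pair no cells across groups and nothing was tested. Of 66 calls at 2-fold, 66 were kept with TMM factors, median-of-ratios factors, pseudocount 0.1, no filter, or Dock10 and Cep97 left out of the totals; 52 with cells weighted equally or the deposited log2 table, 36 with pseudocount 10, 58 without Ventral 41 or without the 18 Ventral wells sharing an index with it, and 62 without the 20 cells with macrophage markers. Under these settings 1 called fold changed sign, that of Col22a1 in Mesenchymal against Ventral (0.17 without those wells). With single cells left out, Col14a1 in Mesenchymal against Dorsal did too (-0.15 without Mesenchymal 84). The cause was not tested.

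Higher in Dorsal against Ventral were 3 members with cells weighted equally, with the log2 table and with pseudocount 10; lower were 0 with pseudocount 10 and 3 without the wells. Against Ventral, 13 were higher and 1 lower in Mesenchymal with pseudocount 10, and 2 lower with at least 1000 counts. Highest in Mesenchymal were 10 with pseudocount 10. The 1 member highest in HSC became 0 with equal weights, the log2 table, pseudocount 10, 1000 counts or without the wells, and 0 to 1 with single cells left out. With any cell left out, members higher in Mesenchymal numbered 20 to 23 against Ventral and 19 to 21 against Dorsal (this alternative was chosen after seeing the data).

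The summed collagen percentages were 0.0507 (HSC), 0.110 (Dorsal) and 0.0780 (Ventral) with equal weights; 0.0523, 0.105, 0.0734 and 0.327 (Mesenchymal) with TMM; 0.0557, 0.124, 0.0800 and 0.362 without Dock10 and Cep97; and 0.0484, 0.110, 0.0776 and 0.315 in the log2 table. Without the wells Ventral had 0.0721; without macrophage-marker cells Dorsal had 0.124 and Ventral 0.0817. With the deepest cell left out these were 0.0505 in HSC, 0.0713 in Ventral and 0.334 in Mesenchymal, so the order of the groups was the same in all of these. The median log2 fold over all genes for Dorsal against Ventral was -0.02 with equal weights and 0.01 without Ventral 41, against 0.14. With median transcript lengths, some short, Col1a1 to Col1a2 was 0.514 in Mesenchymal and 0.0174 in Dorsal, and Col4a1 to Col4a2 was 11.2 in HSC. Of 136 shares of positive cells, 79 stayed within their limits with 1 count, 107 with 10 counts and 121 without thinning.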
